A study of Homo sapiens with 6 samples.

Results

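DNA replication origin and fork genes encode the proteins that mark an origin of replication, load and start the replicative helicase there, and copy both strands at the moving fork. The 45 genes described here were taken by a fixed list of symbols, matched through GENCODE release 29, out of 58243 genes listed in the files. The rule itself used no measured value, but the members were chosen with earlier results of these data known. All 45 were found, 42 with the same identifier version as GENCODE 29, and all 45 passed the level filter of a mean of 1 FPKM or more across the 6 libraries, where FPKM is the fragment count divided by transcript length and by the library's mapped fragments. The libraries were made from CAL27, an established line of human squamous carcinoma cells of the tongue. Of them, 3 came from cells given 30 mM metformin for 48 h, and 3 from cells given PBS, the vehicle, for 48 h. Both groups grew in DMEM with serum and antibiotics, the line carries no engineered change named in the labels, and no other dose or time was included. A single line cannot stand for other carcinomas, and nothing in the labels states that each library had its own culture. The p-values therefore cover only library-to-library spread, which may be technical.

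In the first gap phase of the cell cycle, the origin recognition complex (ORC) binds DNA and, with CDC6 and CDT1, loads the ring-shaped MCM2-7 helicase, a step called licensing. Geminin then blocks CDT1, and the CDC7-DBF4 kinase together with CDC45 and the GINS complex turns the loaded ring into an active helicase. Polymerase alpha with primase begins each new strand, polymerases epsilon and delta extend the leading and the lagging strand, and PCNA, the sliding clamp, is put on DNA by the RFC clamp loader. Transcripts of many of these genes are known to be driven by E2F transcription factors and to peak as cells enter S phase.

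Sequences around the starts of members are shown first because E2F-type letters are a known feature of replication gene promoters. RefSeq promoter windows of 300 bases around a RefSeq start (build GRCh38.p14) were found for 39 of the 45 members, 51 windows in all. The letters searched were TTTCCCGC, TTTCGCGC, TTTGCCGC and TTTGGCGC on both strands, where TTTGGCGCGAAA holds a pair of overlapping matches. At least 1 match was found in 20 of 39 members (51.3%), against 610 of 8910 genes that passed the level filter and had a window (6.85%) and 1090 of all 27305 symbols with a window (3.99%). Among members whose transcripts fell, 19 of 32 with a window held a match, and among members that did not pass the test, 1 of 7 did, which was MCM8. The CHR-type letters TTTGAA and TTCGAA were found in 3 of 39 members (7.69%) and in 14.9% of genes that passed the filter. CCAAT was found in 22 of 39 (56.4%) and in 43.1%. GENCODE 29 can place the outermost end of a gene farther upstream, and the windows printed for LIG1, GINS2 and RFC4 lie inside the gene bounds given below. A match is a description of the letters and was not tested as a binding site. Since the list is made of replication genes, its share of matches describes the list and not an effect of metformin. No other set of genes that fell was searched, and a link between matches and falls was not tested. The windows of the 3 members with the largest falls and of MCM8 and RFC4, which did not pass the test, are printed 5′ to 3′ along the gene, with E2F-type letters in capitals.
MCM6 (chr2:135876394-135876693, minus strand): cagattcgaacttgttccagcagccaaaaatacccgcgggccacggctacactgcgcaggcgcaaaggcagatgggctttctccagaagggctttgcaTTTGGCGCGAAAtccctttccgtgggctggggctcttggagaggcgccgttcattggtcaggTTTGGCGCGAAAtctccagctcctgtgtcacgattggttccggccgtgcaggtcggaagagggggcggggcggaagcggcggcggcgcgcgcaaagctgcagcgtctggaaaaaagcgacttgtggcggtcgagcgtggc
LIG1 (chr19:48170295-48170594, minus strand): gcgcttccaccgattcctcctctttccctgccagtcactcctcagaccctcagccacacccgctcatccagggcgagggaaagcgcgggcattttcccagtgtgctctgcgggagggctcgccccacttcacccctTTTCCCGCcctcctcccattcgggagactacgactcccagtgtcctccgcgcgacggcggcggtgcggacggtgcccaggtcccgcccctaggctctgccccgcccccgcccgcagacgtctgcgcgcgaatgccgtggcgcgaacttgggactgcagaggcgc
GINS2 (chr16:85688905-85689204, minus strand): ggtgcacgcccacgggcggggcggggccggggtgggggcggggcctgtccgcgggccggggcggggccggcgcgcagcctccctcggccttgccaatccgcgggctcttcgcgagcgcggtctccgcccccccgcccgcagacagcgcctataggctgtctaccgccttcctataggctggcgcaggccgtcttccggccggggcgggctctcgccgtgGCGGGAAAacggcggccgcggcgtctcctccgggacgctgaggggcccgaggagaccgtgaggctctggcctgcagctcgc
MCM8 (chr20:5950402-5950701, plus strand): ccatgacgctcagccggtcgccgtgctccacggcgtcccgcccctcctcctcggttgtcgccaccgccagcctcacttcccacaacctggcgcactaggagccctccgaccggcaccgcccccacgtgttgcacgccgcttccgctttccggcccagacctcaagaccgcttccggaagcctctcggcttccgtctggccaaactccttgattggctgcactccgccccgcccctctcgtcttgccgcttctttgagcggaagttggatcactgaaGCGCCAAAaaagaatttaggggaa
RFC4 (chr3:186806433-186806732, minus strand): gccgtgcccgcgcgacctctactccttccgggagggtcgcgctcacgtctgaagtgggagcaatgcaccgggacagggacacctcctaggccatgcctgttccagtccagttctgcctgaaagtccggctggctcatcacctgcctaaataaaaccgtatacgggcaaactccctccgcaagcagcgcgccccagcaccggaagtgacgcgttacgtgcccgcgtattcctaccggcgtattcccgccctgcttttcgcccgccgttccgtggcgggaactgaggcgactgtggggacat
MCM6 thus carried 2 separate stretches, LIG1, GINS2 and MCM8 1 each, and RFC4 none of these letters in its window.

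With metformin, transcripts of 37 of the 45 replication genes were lower, 0 were higher and 8 did not pass the test (limma's moderated test on log2(FPKM + 1), Benjamini-Hochberg adjusted p below 0.05 over 13437 genes). That is 82.2% of the members, and over all tested genes 25.2% were lower, 31.0% were higher and 56.2% were called in either direction. The median log2 change, metformin minus PBS, was -0.84 over the members and 0.06 over all tested genes. In these bulk libraries, fewer cells of a type, such as cells in S phase, and less RNA per cell cannot be told apart. A called fall of at least 1 on that scale was seen in 20 members, against 4.74% of all tested genes. In 38 members every metformin library lay below every PBS library, against 28.7% of all tested genes. These were the 37 called members and ORC5. The 6 lowest changes were those of MCM6, LIG1, GINS2, CDC45, MCM5 and POLA1, and 4 of the 6 ORC genes did not pass the test. On the log2(FPKM + 1) scale changes of genes with low values are understated, so folds of the mean FPKM are given beside them.

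**Figure D1:**
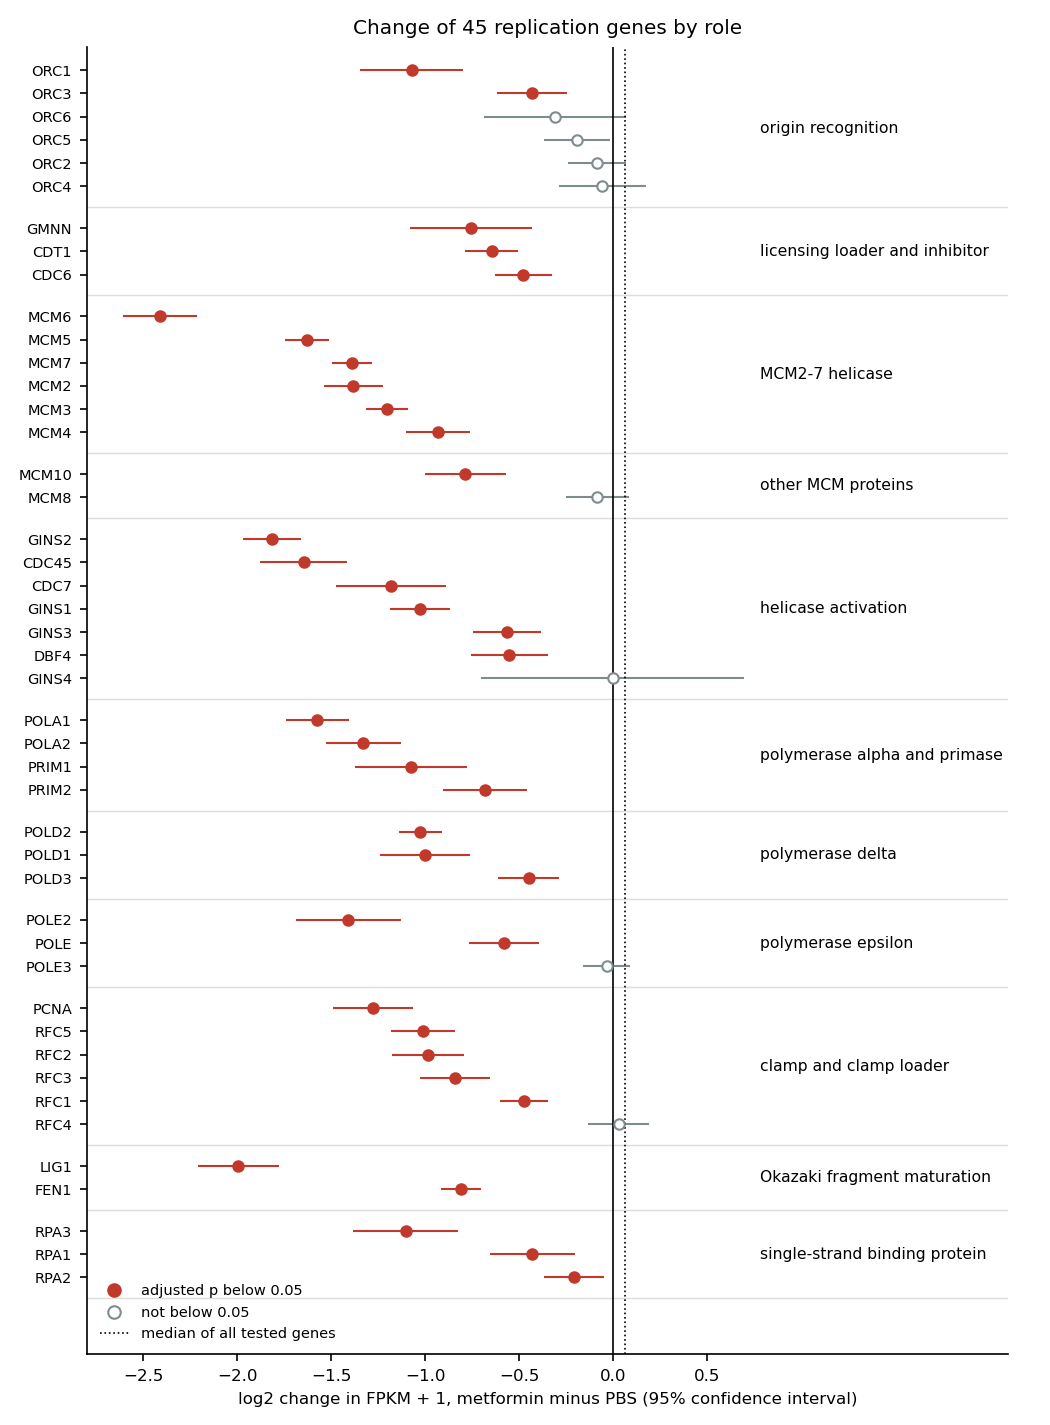
Log2 change of FPKM + 1, metformin minus PBS, with its 95% confidence interval for each of the 45 members, grouped by role; filled points passed the test and open points did not, and the dotted line marks the median of all tested genes. MCM6 lies farthest left at -2.41, and the 8 open points include 4 of the 6 ORC genes, RFC4 and POLE3.

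The estimated depth was 7810000 to 8820000 counted fragments per library, read from the spacing of the low FPKM values of single-transcript genes, so 1 FPKM stood for about 7.81 to 8.82 fragments per kilobase of transcript. The groups overlapped in this depth. Markers of squamous epithelium were present in all libraries, 10 of 10 above the filter, with 7 lower, 2 higher and 1 not passing, from KRT14 at 12.9, 12.6 and 13.2 FPKM with metformin and 262, 249 and 228 FPKM with PBS to EPCAM at 128, 132 and 129 FPKM with metformin and 99.4, 108 and 101 FPKM with PBS. Fibroblast markers summed to 2.31 to 2.63 FPKM with metformin and 1.43 to 2.07 FPKM with PBS over 5 genes, of which COL1A1 passed the filter and DCN was listed at 0 throughout. Leukocyte markers summed to 3.43 to 5.09 FPKM with metformin and 2.31 to 3.23 FPKM with PBS over 6 genes, carried by CD68, with CD79A listed at 0. Endothelial markers summed to 2.01 to 2.32 FPKM with metformin and 5.93 to 6.87 FPKM with PBS over 3 genes, nearly all of it CDH5, with PECAM1 at most 0.158 FPKM. The part of these 3 sums in the members' changes was not tested. Beside the counts of squamous and cycling markers, 25.2% of all tested genes were lower and 31.0% higher. Against a median log2 change of -0.84 over the members, the 8 markers of cycling cells were all lower, with a median of -1.67. They summed to 123, 115 and 119 FPKM in the metformin libraries and 370.3, 357 and 381 FPKM in the PBS libraries, from AURKA at a log2 change of -0.66 to PLK1 at -2.27, and their part in the members' falls was not tested.

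Among the ORC genes, ORC1 stood apart. It had 5.24, 4.69 and 6.56 FPKM in the metformin libraries, against 11.8, 12.5 and 13.5 FPKM in the PBS libraries. The groups did not overlap, and ORC1, the subunit whose level is known to be regulated through the cell cycle, was 2.29-fold lower with a log2 change of -1.07 with SE 0.116 (limma adjusted p = 0.000327). ORC3 was 1.38-fold lower at 10.0 ± 0.865 FPKM with metformin and 13.8 ± 0.681 FPKM with PBS (SD, n = 3 each; log2 change -0.43, limma adjusted p = 0.0032). ORC2, which forms the body of the complex with ORC3, ORC4 and ORC5, had 8.24, 8.05 and 7.92 FPKM with metformin and 8.54, 9.20 and 8.19 FPKM with PBS. The ORC2 libraries of the groups overlapped, and the 95% interval of its log2 change was -0.24 to 0.07. ORC4 gave an interval of -0.29 to 0.17, ORC5 -0.37 to -0.01 and ORC6, the smallest subunit, -0.69 to 0.07. ORC5 was lower in every metformin library at 6.65 ± 0.494 FPKM with metformin and 7.73 ± 0.358 FPKM with PBS, but its adjusted p was 0.0637 by limma. It passed with median-of-ratios scaling (adjusted p = 0.0262), with quantile scaling (adjusted p = 0.024) and without metformin replicate 2 (adjusted p = 0.0399). Among the settings tried, ORC6 passed only without metformin replicate 3, which had the highest metformin value (limma adjusted p = 0.0363).

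Within the summed ORC transcripts, set side by side per length in FPKM, ORC1 made up 12.6, 11.6 and 15.4% in the metformin libraries and 20.9, 21.9 and 24.4% in the PBS libraries. ORC2 made up 19.8, 19.9 and 18.6% in the metformin libraries and 15.2, 16.2 and 14.8% in the PBS libraries. ORC1 thus held a lower and ORC2 a higher share in every metformin library. The share of ORC5 was also higher in each, at 16.0 ± 1.53% with metformin and 13.7 ± 0.667% with PBS. Shares are parts of a whole, so in any complex a subunit that fell less than the others takes a higher share without rising itself. The log2 ratio of ORC1 to ORC2 (each FPKM + 1) was -0.57, -0.67 and -0.24 with metformin and 0.42, 0.40 and 0.66 with PBS. An exact two-sided permutation test over the libraries gave p = 0.1, the smallest that 3 against 3 allow, and 0.12 after adjustment over the 6 ratios examined.

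All 3 genes of the loading step fell, each by less than 2-fold. CDC6, the ATPase that completes the loader with ORC, had 15.3, 15 and 15.5 FPKM in the metformin libraries, against 22.0, 20.1 and 22.9 FPKM in the PBS libraries. CDT1, which brings the MCM ring to ORC, had 14.8, 14.5 and 14.9 FPKM in the metformin libraries, against 23.7, 24.9 and 22.3 FPKM in the PBS libraries. Neither overlapped between groups, and the falls were 1.42-fold and 1.6-fold, with log2 changes of -0.48 and -0.65 (limma adjusted p = 0.000842 and 0.000163). GMNN, which encodes geminin, the inhibitor of CDT1, had 9.44, 7.58 and 11.6 FPKM in the metformin libraries, against 15.8, 17.1 and 16.9 FPKM in the PBS libraries. Its metformin libraries spread more widely than those of CDC6 and CDT1, yet all lay below the PBS libraries, and the fall was 1.74-fold (log2 change -0.76, limma adjusted p = 0.00327). The log2 ratio of GMNN to CDT1 was -0.60, -0.85 and -0.33 with metformin and -0.55, -0.52 and -0.38 with PBS, so inhibitor and target were not separated by group (exact two-sided permutation p = 0.5).

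All 6 subunits of the MCM2-7 helicase fell, with a median log2 change of -1.39. Their FPKM summed to 111, 119 and 115 FPKM in the metformin libraries and 314, 315 and 313 FPKM in the PBS libraries, a 2.74-fold difference of means. MCM6 (ENSG00000076003.4, chromosome 2, 135839626 to 135876426 on the minus strand of GRCh38) had 6.74, 8.52 and 7.48 FPKM in the metformin libraries, against 43.6, 45.3 and 44.1 FPKM in the PBS libraries. The fall was 5.85-fold, a log2 change of -2.41 with SE 0.0826 (limma adjusted p = 3.67e-06), and only 0.201% of the 13437 tested genes had a change as low or lower. MCM5 followed with 11.8, 11.7 and 11.9 FPKM with metformin and 37.8, 39.5 and 38.0 FPKM with PBS, a 3.26-fold fall with a log2 change of -1.63 with SE 0.0489 (limma adjusted p = 2.41e-06). In both genes the groups lay far apart relative to their spread.

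MCM7 was the subunit with the highest level and had 29.9, 30.0 and 28.3 FPKM in the metformin libraries, against 77.8, 79.0 and 79.0 FPKM in the PBS libraries. MCM2 had 18.0, 21.0 and 19.8 FPKM with metformin and 53.8, 51.5 and 52.2 FPKM with PBS, and MCM3 had 24.5, 23.4 and 25.0 FPKM with metformin and 57.1, 57 and 57.6 FPKM with PBS. These 3 subunits fell by similar amounts, MCM7 2.67-fold, MCM2 2.68-fold and MCM3 2.36-fold, with log2 changes of -1.39, -1.38 and -1.20 (limma adjusted p of 3.16e-06, 1.16e-05 and 5.64e-06). The smallest fall of the 6 was that of MCM4, with 20.0, 24.1 and 22.0 FPKM with metformin and 43.3, 42.6 and 42.3 FPKM with PBS, 1.94-fold lower (log2 change -0.93, SE 0.0724, limma adjusted p = 8e-05). MCM7 shares 8.94% of its exon bases with AP4M1 on the opposite strand. AP4M1 had 2.48 FPKM with metformin and 4.06 FPKM with PBS, both far below the level of MCM7. MCM2 shares 45 exon bases with TPRA1 on the opposite strand, a gene at 35.5 FPKM with metformin and 14.9 FPKM with PBS.

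The make-up of the helicase transcripts differed between groups, although the protein ring holds 1 copy of each subunit. Of the summed MCM2-7 FPKM, MCM6 made up 6.08, 7.18 and 6.53% in the metformin libraries and 13.9, 14.4 and 14.1% in the PBS libraries. MCM4 made up 18.0, 20.3 and 19.2% in the metformin libraries and 13.8, 13.5 and 13.5% in the PBS libraries, and MCM3 22.1, 19.7 and 21.8% in the metformin libraries and 18.2, 18.1 and 18.4% in the PBS libraries. MCM5 made up 10.6, 9.84 and 10.4% in the metformin libraries and 12.1, 12.6 and 12.1% in the PBS libraries. Shares of MCM6 and MCM5 were lower, and those of MCM3 and MCM4 higher, in every metformin library, whereas the shares of MCM2 and MCM7 overlapped.

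**Figure D2:**
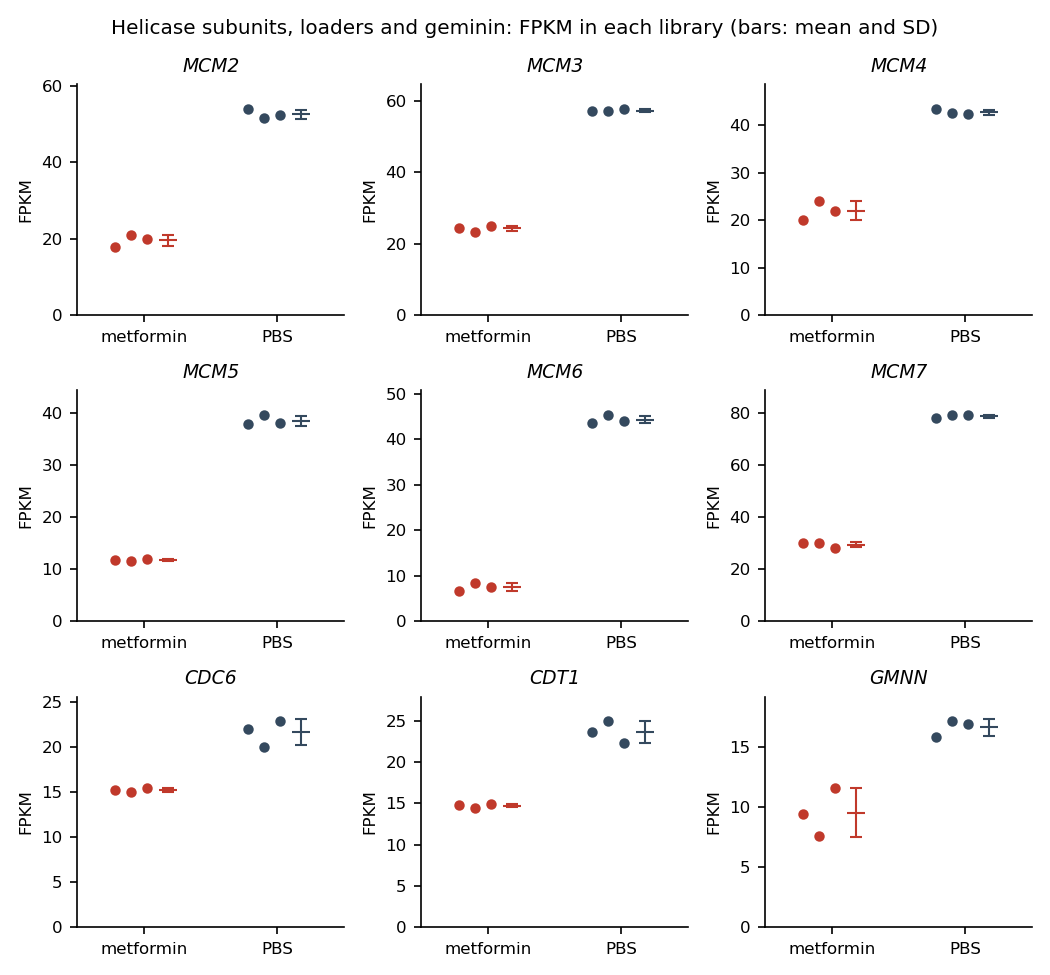
FPKM of the 6 MCM2-7 subunits, the loaders CDC6 and CDT1 and geminin (GMNN) in each library, metformin left and PBS right, with the mean and SD of 3 libraries beside the points. All metformin points lie below all PBS points in each panel, with the widest relative gap in MCM6.

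The other MCM genes divided. MCM10, which is needed to start the loaded helicase, had 1.87, 2.21 and 2.45 FPKM in the metformin libraries, against 4.39, 4.55 and 4.44 FPKM in the PBS libraries. At 2.05-fold lower it fell with a log2 change of -0.79 with SE 0.0910 (limma adjusted p = 0.000445). The log2 ratio of MCM10 to MCM2 (each FPKM + 1) was -2.72, -2.78 and -2.59 with metformin and -3.35, -3.24 and -3.29 with PBS. It was higher in every metformin library (exact two-sided permutation p = 0.1, 0.12 adjusted). The added 1 shrinks the fall of MCM10 more than that of MCM2, so these ratios overstate the difference between their folds of 2.05 and 2.68. MCM8, which works with MCM9 in homologous recombination and is not part of the ring, had 9.41, 8.13 and 8.55 FPKM with metformin and 8.99, 9.34 and 9.48 FPKM with PBS. Its groups overlapped and its log2 change had an interval of -0.25 to 0.08.

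In helicase activation, 6 of 7 genes fell, with a median log2 change of -1.03. CDC45, which joins the MCM ring and GINS in the active helicase, had 7.66, 7.61 and 7.75 FPKM in the metformin libraries, against 25.3, 23.3 and 30.3 FPKM in the PBS libraries. The metformin libraries were nearly identical, the PBS libraries were spread, and the fall was 3.43-fold (log2 change -1.65, SE 0.0973, limma adjusted p = 2.64e-05). GINS2 (ENSG00000131153.8, chromosome 16, 85676198 to 85690073 on the minus strand of GRCh38) had 5.06, 5.33 and 4.83 FPKM in the metformin libraries, against 19.8, 21.3 and 19.8 FPKM in the PBS libraries, a 4.01-fold fall (log2 change -1.81, SE 0.0641, limma adjusted p = 3.98e-06). GINS1 had 3.47, 3.32 and 3.48 FPKM with metformin and 7.61, 8.20 and 8.25 FPKM with PBS, and GINS3 had 4.48, 4.72 and 4.32 FPKM with metformin and 6.68, 7.06 and 7.72 FPKM with PBS. Both fell without overlap, GINS1 2.34-fold and GINS3 1.59-fold (limma adjusted p = 3.72e-05 and 0.000851). GINS3 shares 10.9% of its exon bases with AC009118.2 on the opposite strand. That gene had 5.95 ± 1.02 FPKM with metformin and 7.49 ± 1.52 FPKM with PBS, near the level of GINS3. Whether counting used strand is not given, so the values of GINS3 are uncertain to that extent.

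GINS4 had 1.66, 1.89 and 2.06 FPKM with metformin and 3.6, 0.968 and 1.61 FPKM with PBS. Its PBS libraries had a coefficient of variation of 66.6%, the widest of any member in either group, so no difference was detectable, with an interval of -0.70 to 0.70 on the log2 scale. GINS4 shares 1159 exon bases, 21.2% of its own, with the antisense gene AC009630.2, which had 1.45 ± 0.0999 FPKM with metformin and 2.09 ± 0.224 FPKM with PBS, and whether counting used strand is not given in the sources used here. Of the summed GINS FPKM, GINS2 held 34.5, 34.9 and 32.9% in the metformin libraries and 52.5, 56.8 and 53.0% in the PBS libraries. GINS3 held 30.6, 30.9 and 29.4% in the metformin libraries and 17.7, 18.8 and 20.6% in the PBS libraries. The share of GINS2 was thus lower, and that of GINS3 higher, in every metformin library. The share of GINS4 was also higher in each, at 12.6 ± 1.34% with metformin and 5.48 ± 3.63% with PBS.

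Both parts of the kinase that fires the helicase fell. CDC7, the catalytic part, had 3.89, 3.29 and 3.14 FPKM in the metformin libraries, against 10.6, 9.11 and 7.67 FPKM in the PBS libraries. DBF4, its activating partner, had 2.70, 2.24 and 2.41 FPKM in the metformin libraries, against 4.04, 3.85 and 4.29 FPKM in the PBS libraries. No metformin library reached a PBS library, and the falls were 2.65-fold and 1.65-fold (log2 changes -1.18 and -0.55, limma adjusted p = 0.000281 and 0.00163). DBF4 shares 142 exon bases with SLC25A40 on the opposite strand, a gene at 2.47 ± 0.249 FPKM with metformin and 7.5 ± 0.275 FPKM with PBS.

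All 4 genes of polymerase alpha and primase, which lays the RNA-DNA primer of every new strand, fell. POLA1, the catalytic subunit, had 3.43, 3.63 and 3.11 FPKM in the metformin libraries, against 12, 11.8 and 12.3 FPKM in the PBS libraries, and it fell 3.56-fold (log2 change -1.57, SE 0.0700, limma adjusted p = 8.82e-06). POLA2, its accessory subunit, had 4.54, 3.87 and 4.58 FPKM with metformin and 11.4, 12.8 and 12.9 FPKM with PBS, a 2.86-fold fall. PRIM1, the catalytic primase subunit, had 5.30, 6.75 and 7.91 FPKM with metformin and 15.2, 15 and 14.7 FPKM with PBS, and PRIM2, the large primase subunit, had 4.64, 4.15 and 4.43 FPKM with metformin and 8.36, 6.69 and 8.02 FPKM with PBS. Both polymerase subunits thus fell more than either primase subunit, PRIM1 by 2.25-fold and PRIM2 by 1.74-fold, without a test of that difference. The log2 ratio of PRIM1 to PRIM2 was 0.16, 0.59 and 0.71 with metformin and 0.79, 1.06 and 0.80 with PBS, lower in every metformin library (exact two-sided permutation p = 0.1, 0.12 adjusted).

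The polymerases that extend the strands changed unevenly. POLD1, the catalytic subunit of polymerase delta, had 8.20, 9.41 and 8.49 FPKM in the metformin libraries, against 20.3, 16.0 and 19.1 FPKM in the PBS libraries. POLD2, which links POLD1 to the other subunits, had 19.3, 20.4 and 19.7 FPKM in the metformin libraries, against 40.8, 41.8 and 41.4 FPKM in the PBS libraries. They fell 2.13-fold and 2.09-fold (limma adjusted p = 0.000231 and 1.04e-05), and POLD3, an accessory subunit that binds PCNA, fell 1.41-fold at 8.90 ± 0.448 FPKM with metformin and 12.5 ± 0.671 FPKM with PBS (limma adjusted p = 0.00151). POLE, the catalytic subunit of polymerase epsilon, had 4.45, 4.59 and 4.90 FPKM in the metformin libraries, against 7.89, 6.80 and 7.70 FPKM in the PBS libraries, a 1.61-fold fall (log2 change -0.58, SE 0.0782, limma adjusted p = 0.000869). The log2 ratio of POLE to POLD1 was -0.76, -0.90 and -0.69 with metformin and -1.26, -1.12 and -1.21 with PBS, higher in every metformin library (exact two-sided permutation p = 0.1, 0.12 adjusted).

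Within polymerase epsilon the subunits lay far apart. POLE2, its second-largest subunit, had 1.96, 2.38 and 1.78 FPKM in the metformin libraries, against 8.02, 7.04 and 6.18 FPKM in the PBS libraries, and it fell 3.47-fold (log2 change -1.41, SE 0.117, limma adjusted p = 0.000104). POLE3, a histone-fold subunit that is also part of a chromatin remodelling complex, had 69.9, 73.5 and 75.3 FPKM in the metformin libraries, against 72.1, 73.7 and 78.4 FPKM in the PBS libraries. The POLE3 libraries overlapped between groups at the highest level of any polymerase gene described here, and its 95% interval of -0.16 to 0.09 leaves out a change of the size seen in POLE or POLE2.

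The clamp and 4 of the 5 clamp loader genes fell. PCNA, which tethers the polymerases to DNA, had 71.5, 83.0 and 76.3 FPKM in the metformin libraries, against 166, 201 and 197 FPKM in the PBS libraries. It was the member with the highest PBS level, and it fell 2.45-fold (log2 change -1.28, SE 0.0897, limma adjusted p = 5.22e-05). RFC5 had 9.0, 8.99 and 8.84 FPKM with metformin and 17.4, 19.3 and 20.6 FPKM with PBS, and RFC2 had 8.76, 9.39 and 8.87 FPKM with metformin and 17.4, 18.1 and 20.9 FPKM with PBS. Neither overlapped between the groups, and they fell 2.13-fold and 2.09-fold (limma adjusted p = 5.63e-05 and 9.55e-05). RFC3 fell 1.84-fold at 13.7 ± 1.31 FPKM with metformin and 25.2 ± 0.910 FPKM with PBS (limma adjusted p = 0.000169). RFC1, the large subunit found in the canonical loader and not in the alternative ones, had 16.8, 16.5 and 16.2 FPKM with metformin and 23.9, 23.9 and 22.3 FPKM with PBS, a 1.41-fold fall (limma adjusted p = 0.000401). The log2 ratio of RFC1 to PCNA was -2.03, -2.26 and -2.16 with metformin and -2.75, -3.02 and -3.09 with PBS (exact two-sided permutation p = 0.1, 0.12 adjusted).

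RFC4 (ENSG00000163918.10, chromosome 3, 186789880 to 186807058 on the minus strand of GRCh38) was the exception in the loader. It had 19.9, 17.0 and 18.5 FPKM in the metformin libraries, against 18.3, 18.0 and 17.8 FPKM in the PBS libraries. The groups overlapped, with an interval of -0.13 to 0.19, whose lower end lies above the change of every other loader gene. Its share of the summed RFC transcripts was 29.2, 25.4 and 28.5% in the metformin libraries and 17.8, 17.1 and 16.8% in the PBS libraries, higher in every metformin library. This rise in share follows from the falls of the other loader genes and is no further result. RFC1 also held a higher share in every metformin library, and RFC2, RFC3 and RFC5 each held a lower one. RFC4 shares 21 exon bases with the abundant gene EIF4A2 on the opposite strand, 0.701% of its exon bases, and EIF4A2 had 46.3 ± 2.89 FPKM with metformin and 53.5 ± 2.00 FPKM with PBS.

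**Figure D3:**
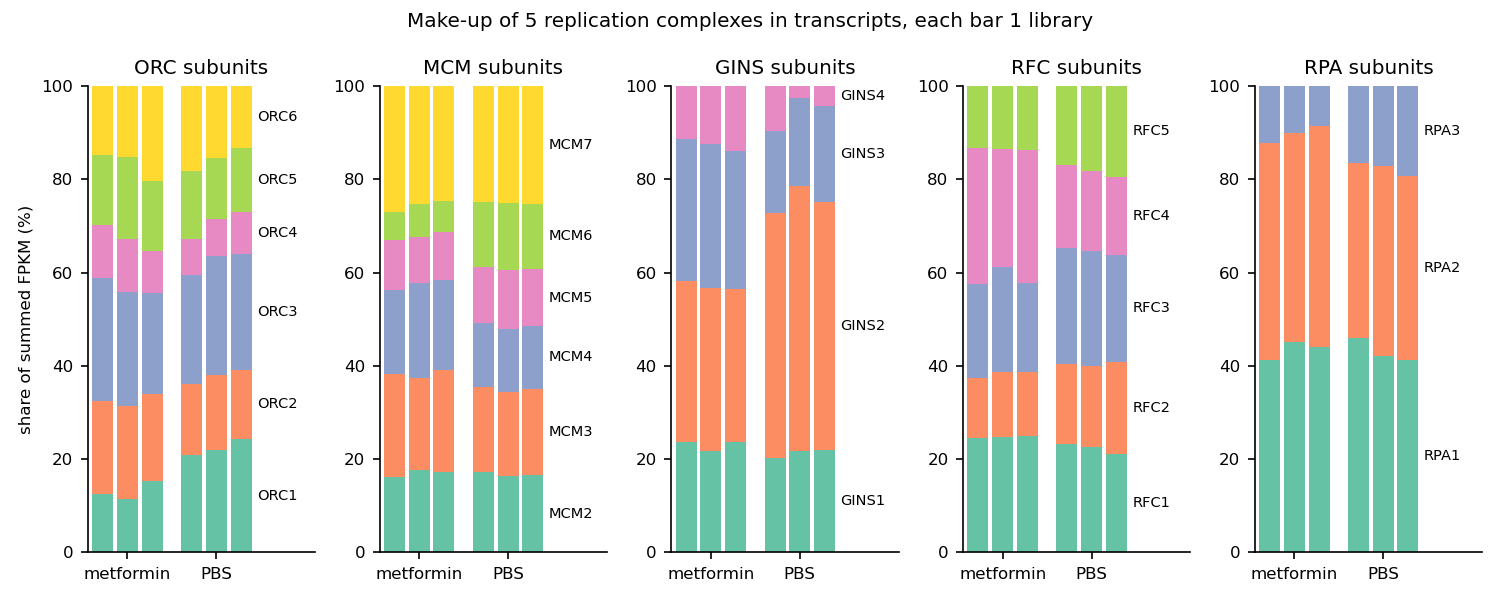
Share of each subunit in the summed FPKM of its complex, in percent, for ORC, MCM2-7, GINS, RFC and RPA; each bar is 1 library, metformin left and PBS right. MCM6 and GINS2 take visibly smaller shares in all 3 metformin bars, and RFC4 a larger one.

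Lagging-strand maturation showed the second-largest fall of the members. LIG1 (ENSG00000105486.13, chromosome 19, 48115445 to 48170603 on the minus strand of GRCh38), the ligase that seals Okazaki fragments, had 1.87, 2.23 and 1.95 FPKM in the metformin libraries, against 11.7, 9.90 and 11.5 FPKM in the PBS libraries. It was 5.47-fold lower, a log2 change of -1.99 with SE 0.0901 (limma adjusted p = 9.24e-06), and 0.432% of tested genes changed as low or lower. FEN1, the nuclease that trims the flap before ligation, had 31.4, 32.8 and 32.6 FPKM in the metformin libraries, against 56.4, 57.2 and 58.1 FPKM in the PBS libraries. The fall of FEN1 was 1.77-fold with little spread (log2 change -0.81, SE 0.0447, limma adjusted p = 2.12e-05).

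The 3 subunits of RPA, which coats single-stranded DNA at the fork and in repair, fell by unequal amounts. RPA3, the smallest subunit, had 6.23, 6.04 and 4.6 FPKM in the metformin libraries, against 12.2, 12.8 and 14.4 FPKM in the PBS libraries, 2.34-fold lower (log2 change -1.10, SE 0.117, limma adjusted p = 0.000304). RPA1, the large DNA-binding subunit, had 20.9, 26.9 and 23.4 FPKM with metformin and 34.0, 31.5 and 31.1 FPKM with PBS, 1.36-fold lower (limma adjusted p = 0.00755). RPA2 had 23.5, 26.7 and 25.2 FPKM with metformin and 27.7, 30.4 and 29.7 FPKM with PBS, and its 1.16-fold fall was the smallest that passed (log2 change -0.21, limma adjusted p = 0.0325). Its call was lost without metformin replicate 1 (adjusted p = 0.0957), metformin replicate 3 (0.0718), PBS replicate 2 (0.0907) or PBS replicate 3 (0.084). It was also lost with no level filter (0.0539), with quantile scaling (0.0741) and without the trend in limma (0.0526). Of the summed RPA FPKM, RPA3 held 12.3, 10.1 and 8.65% in the metformin libraries and 16.6, 17.1 and 19.2% in the PBS libraries, lower in every metformin library. The share of RPA2 was higher in every metformin library, and that of RPA1 overlapped. RPA3 shares 118 exon bases with UMAD1 and 70 with AC007161.3 on the opposite strand. Of the members not yet named in this respect, FEN1 shares 6.70% of its exon bases with TMEM258, RFC5 5.72% with WSB2, PRIM1 5.42% with HSD17B6, ORC2 4.39% with AC005037.1, RPA1 2.84% with SMYD4 and GINS2 0.214% with GSE1, all on the opposite strand. PRIM1 shares 33 bases with NACA and POLD3 123 bases with AP001372.2 on the same strand, so the values of these members are uncertain to that extent. Named pseudogene copies of the members, 11 in all, reached at most 0.128 FPKM.

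**Figure D4:**
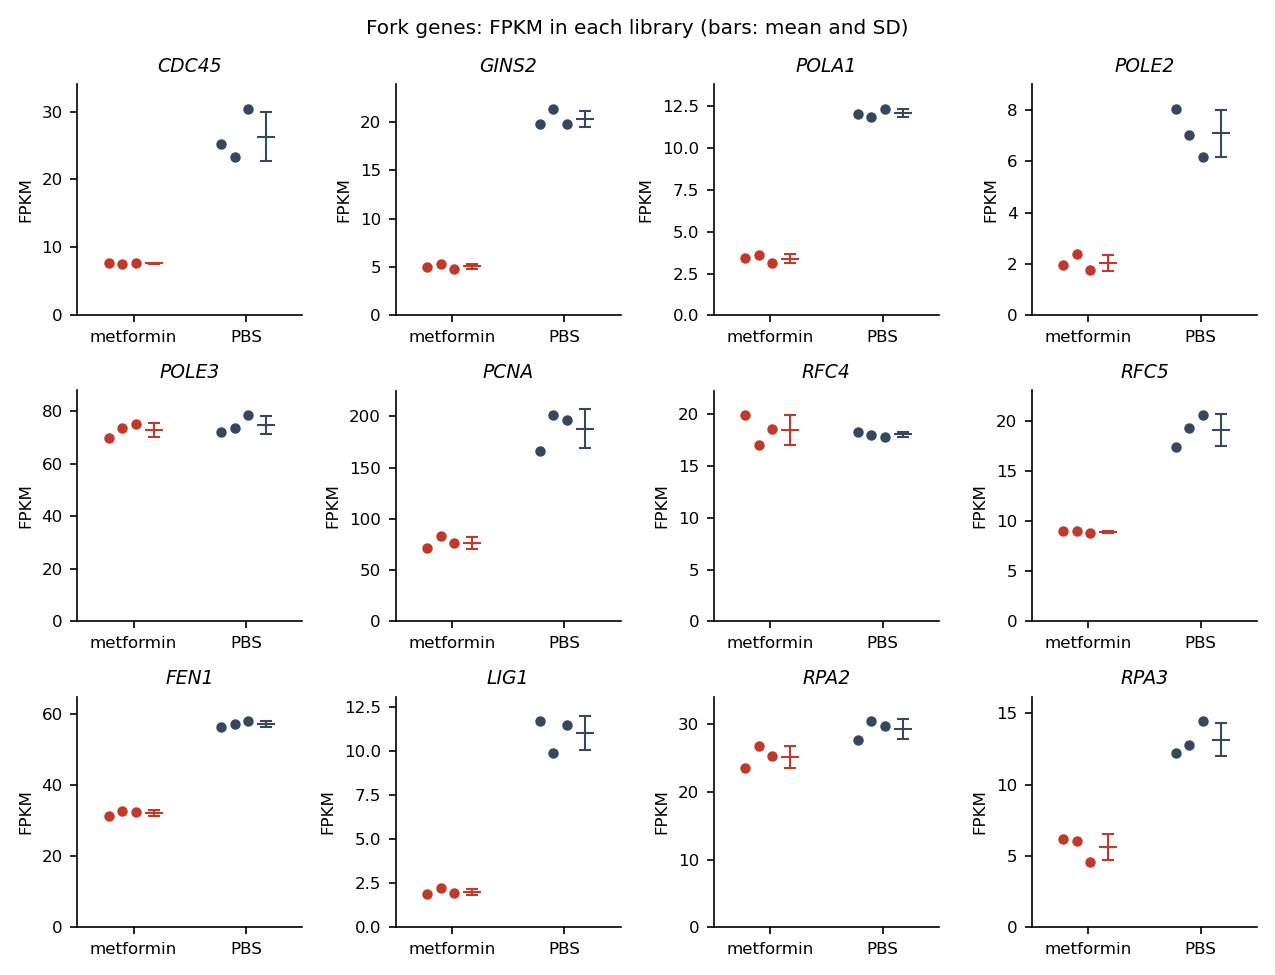
FPKM of 12 genes that act after licensing in each library, metformin left and PBS right, with the mean and SD of 3 libraries beside the points. CDC45, GINS2, POLA1 and LIG1 separate widely, whereas the groups overlap in POLE3 and RFC4.

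A separate list of 33 replication factors outside the 45 gave 22 lower, 2 higher and 9 that did not pass (66.7% lower, against 25.2% of all tested genes), with a median log2 change of -0.49. Fork protection genes were lower in 4 of 4, led by CLSPN, the checkpoint mediator claspin, with 4.34, 3.97 and 3.85 FPKM with metformin and 9.23, 7.85 and 9.96 FPKM with PBS (log2 change -0.98, SE 0.0964, limma adjusted p = 0.000215). Of the clamp regulators 5 of 6 were lower, and PCLAF, a PCNA-binding protein, had the largest fall of the list, with 2.65, 3.70 and 4.22 FPKM with metformin and 11.8, 13.7 and 14.5 FPKM with PBS (3.79-fold, log2 change -1.68, SE 0.145, limma adjusted p = 0.000126). Firing factors were lower in 4 of 7, led by TICRR, which helps to load CDC45, 2.76-fold lower at 2.90 ± 0.269 FPKM with metformin and 8.0 ± 0.491 FPKM with PBS. Primer removal genes were lower in 3 of 4, led by RNASEH2A, the catalytic subunit of ribonuclease H2, 2.61-fold lower at 8.39 ± 0.336 FPKM with metformin and 21.9 ± 1.14 FPKM with PBS (limma adjusted p = 1.31e-05).

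Of 6 chromatin assembly genes, 5 fell and 1 rose. The paralogous histone chaperones ASF1B and ASF1A went opposite ways. ASF1B had 16.2, 15.5 and 15.3 FPKM in the metformin libraries, against 32.7, 32.0 and 31.1 FPKM in the PBS libraries. ASF1A had 15.3, 18.2 and 16.2 FPKM in the metformin libraries, against 11.8, 12 and 11.8 FPKM in the PBS libraries. Both pairs of groups were free of overlap, and the log2 changes were -0.98 and 0.45 (limma adjusted p = 1.73e-05 and 0.00217). Accessory subunits and partners gave 1 lower, MCMBP, a binding partner of MCM proteins, 1.43-fold lower, and 1 higher, MCM9. MCM9, the partner of MCM8, had 2.61, 2.41 and 2.57 FPKM in the metformin libraries, against 1.51, 1.07 and 1.47 FPKM in the PBS libraries, a log2 change of 0.59 with SE 0.107 (limma adjusted p = 0.00337), at levels close to the filter. ASF1A lies within the bounds of MCM9 on the opposite strand, and their exons share 137 bases, 5.44% of those of ASF1A and 1.1% of those of MCM9. With the use of strand in counting not known, fragments from these shared bases may have been counted for either gene. Their part in the 2 rises was not tested. PCLAF likewise shares 28.8% of its exon bases with AC087632.1 on the same strand, and TICRR 7.01% with KIF7 on the opposite strand. Both genes of replisome disassembly, TRAIP and LRR1, did not pass (limma adjusted p = 0.464 and 0.137).

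**Figure D5:**
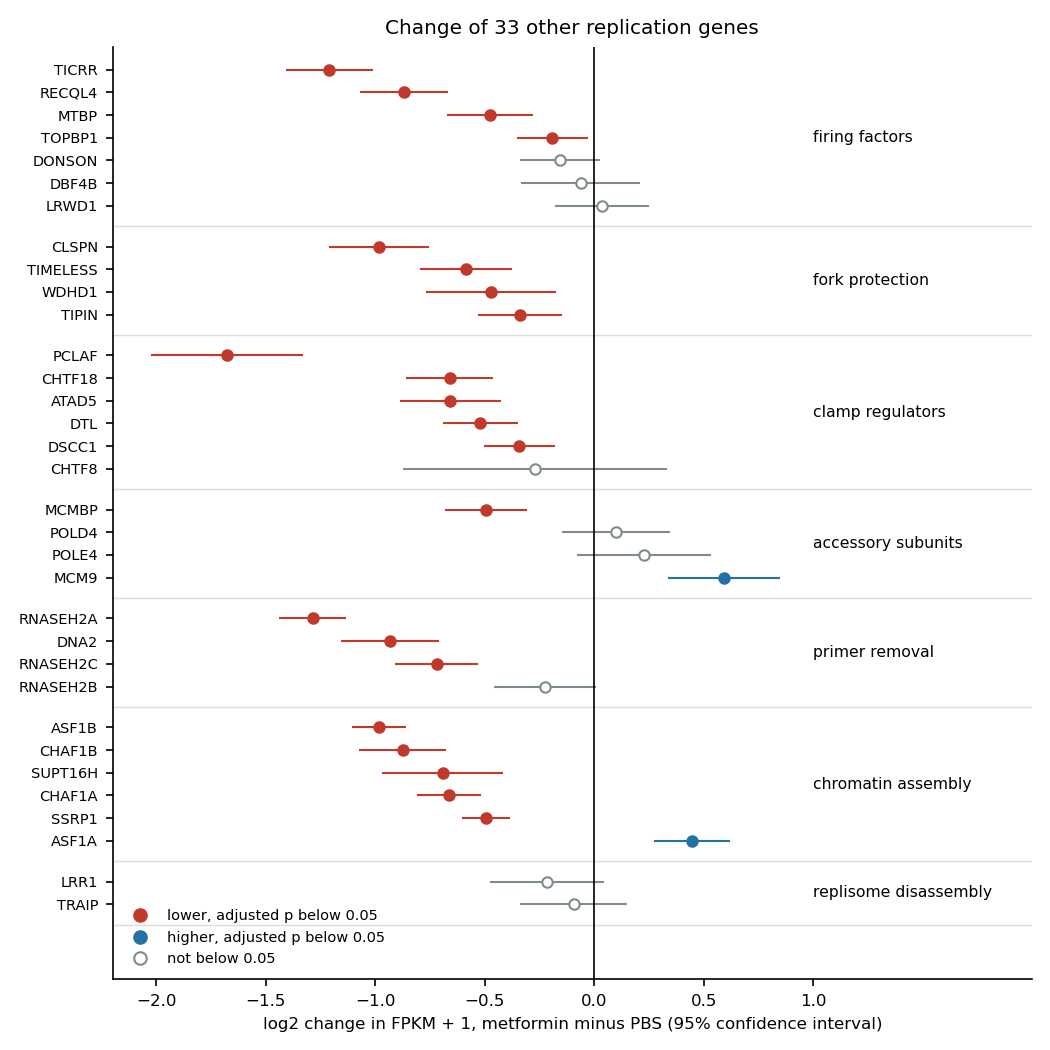
Log2 change of FPKM + 1, metformin minus PBS, with its 95% confidence interval for 33 further replication genes in 7 groups. Most points lie left of 0, and MCM9 and ASF1A are the 2 that passed on the right.

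The E2F factors and pocket proteins known to act on promoters of replication genes were measured in the same libraries. TFDP1 and MYBL2, which is neither an E2F factor nor a pocket protein, were in the same list. Of 12 tested, MYBL2 included, 6 were lower, 1 was higher and 5 did not pass. That is 50% lower, and over all tested genes 25.2% were lower and 31.0% higher. The 5 that did not pass were E2F3, E2F4, E2F5, RBL1 and RBL2. E2F4 and E2F5 lay higher in every metformin library (log2 changes 0.11 and 0.24, limma adjusted p = 0.121 and 0.0874). With E2F7, 3 of the 12 genes lay higher without overlap, and so did 4803 of all 13437 tested genes. In E2F3, RBL1 and RBL2 the groups overlapped. MYBL2, an E2F target that encodes a transcription factor, had the lowest change on the log2(FPKM + 1) scale, with 11.8, 15.3 and 12.9 FPKM with metformin and 42.6, 40.1 and 44.4 FPKM with PBS (3.18-fold, log2 change -1.60, SE 0.0973, limma adjusted p = 2.99e-05). The largest fold was that of E2F2, an activator, 7.84-fold lower with 0.208, 0.447 and 0.295 FPKM with metformin and 2.96, 2.29 and 2.20 FPKM with PBS (limma adjusted p = 0.000178). E2F7, which encodes a repressor of the E2F family, was the 1 that rose, with 28.9, 28.2 and 29.6 FPKM in the metformin libraries, against 8.41, 7.73 and 8.84 FPKM in the PBS libraries (log2 change 1.68, SE 0.0644, limma adjusted p = 5.32e-06). E2F8, the other repressor of that type, fell 2.97-fold with 1.71, 2.13 and 1.75 FPKM with metformin and 6.03, 4.72 and 5.85 FPKM with PBS (limma adjusted p = 0.000176). Activators and repressors were thus both among the genes that fell. The rest of those that fell were E2F1, an activator, 2.40-fold, RB1, the retinoblastoma pocket protein, 1.6-fold, and TFDP1, a dimer partner of E2F factors, 1.29-fold (limma adjusted p of 7.21e-05, 0.000115 and 0.00741). MYBL2 and E2F7 were named because they had the lowest and highest changes of this list, and all others after their values were seen. Whether these transcripts bear on the members' levels was not tested.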

How the data were processed

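Messenger RNA was sequenced from 3 CAL27 libraries treated with metformin and 3 given PBS. Each deposited file lists gene values as FPKM, calculated by the authors per the file headers, on build GRCh38 per the submitters' processing notes. Aligner, counting tool, use of strand and gene models: not given in the sources used here. No read counts were used, and depth was estimated from the spacing of low FPKM values.

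Groups and replicate numbers came from the sample titles. Values were tested as log2(FPKM + 1) with limma 3.58.1 (lmFit, eBayes with trend, R 4.3.3) in the 13437 of 58243 genes whose mean reached 1 FPKM, with Benjamini-Hochberg adjustment and a threshold of 0.05. Intervals are at 95%. The script was tested on simulated data with known changes. Log2 ratios of 2 genes, each taken as FPKM + 1, were compared by exact two-sided permutation over libraries. Symbols came from GENCODE 29, exon overlaps from BEDTools 2.31.1, and promoter windows from RefSeq (GRCh38.p14). Coordinates are those of GENCODE 29. Python 3.11.15 and pandas 2.3.3 were used otherwise.

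All 45 members could be named, and in each group of the further replication genes those that passed with the largest fall and the largest rise. TRAIP and LRR1, which did not pass, are named besides. Of the marker lists the lowest and highest members are named. The list of E2F and pocket proteins, which includes MYBL2, is named in full. MYBL2 and E2F7 were its lowest and highest members, and the others were named after their values were seen. The members and lists were chosen with earlier results of these data known. Alternatives covered pseudocount, level filter, scaling, limma's prior, replicate block, each library left out and, added after the data were seen, protein-coding genes alone.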

Additional observations from a re-analysis of the deposited data

How the results depend on the processing

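The members called lower numbered 36 to 38 in every setting that tested all 45 of them, and the members called higher numbered 0 in all settings. With a mean of at least 5 FPKM, 40 members were tested and 34 were lower, 2401 genes were called higher in place of 4169, and 1 further replication gene was called higher in place of 2, since fewer genes were tested. The median change of all tested genes lay between -0.01 (quantile scaling) and 0.10 (rescaling to an equal sum), and the share of calls that were higher between 48.9% and 57.6%.

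Directions reversed in 4 members that did not pass and in 1 ratio, and the cause was not tested. The change of GINS4 was 0.053 with a pseudocount of 0.1, 0.065 with 0.01 and 0.065 after rescaling, and -0.28 to 0.34 with single libraries left out, the highest without PBS replicate 1. RFC4 had -0.028 with median-of-ratios scaling and -0.022 to 0.085 with single libraries left out. POLE3 had 0.038 with quantile scaling. ORC4 had -0.11 to 0.024, and the log2 ratio of GMNN to CDT1 differed by -0.24 to 0.016, with single libraries left out. RPA2 lost its call in 7 settings. Medians of roles kept their direction in all settings and shifted with pseudocount, filter, scaling and 1 left-out library. With a mean of at least 5 FPKM the median was -0.08 for the other MCM proteins, with MCM8 alone left, and -0.31 for polymerase epsilon, against -0.44 and -0.58 in all tested members.

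Replicate numbers showed no sign of pairing, with deviations of same-numbered libraries correlated at -0.000355, 0.0304 and -0.0105. These values cannot tell whether the samples were handled in pairs, which the labels do not state. With the replicate block, 37 members were lower and 0 higher, 21 further replication genes were lower, and 3199 genes were called lower and 3940 higher. Depth limits the members near 1 to 2 FPKM most, such as GINS4, MCM10, LIG1 and POLE2 with metformin.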
